A study of Mus musculus with 6 samples.

Results

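The genes described here encode the chaperonins of the mouse cell and the mitochondrial HSP70 that works beside them. They are Hspd1 and Hspe1 for the mitochondrial chaperonin, Hspa9 for mitochondrial HSP70 (mortalin), and Tcp1, Cct2, Cct3, Cct4, Cct5, Cct7 and Cct8 for subunits of the cytosolic chaperonin CCT. All rows carrying these symbols were taken, which gave 10 genes of the 22706 in the table, and all 10 passed the minimum mean needed for a test. RNA was measured in freshly sorted muscle stem cells (MuSCs) of control, mdx and Sirt6mKO/mdx mice, with 2 libraries per group. Control animals are labelled wild type, and the labels give the strain of all groups as C57BL/6. Mdx mice carry a loss-of-function mutation of the dystrophin gene and model Duchenne muscular dystrophy. Sirt6mKO/mdx mice carry the same mutation together with floxed Sirt6 alleles deleted by the Pax7ICN Cre, so that the deletion is driven from the Pax7 locus in the muscle lineage, and the Sirt6mKO line was built with a ROSA26-YFP reporter. SIRT6 belongs to the sirtuins and removes acetyl groups from histones. Muscle was digested with enzymes and MuSCs were sorted as Integrin-α7 and CD34 positive or reporter positive cells after removal of Sca1, CD45 and CD31 positive cells. The labels give neither age nor sex, the study describes adult male mice, and the labels do not say whether libraries came from single or pooled animals, so p-values measure only the spread between these libraries.

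The comparisons ask how the transcripts of the folding machines differ in dystrophic MuSCs and how they differ again when Sirt6 is deleted. Approximate depth was 4397632 to 9745218 reads per library, and the 10 genes were each covered by 337 to 6386 reads in a library. Values are normalized read counts, that is reads per gene divided by a size factor of the library. Sirt6 itself stood at 41 and 32 in control libraries, 33 and 40 in mdx, and 37 and 30 where the label is Sirt6mKO/mdx, so its value over the whole gene did not separate the groups (Sirt6mKO/mdx against mdx, limma adjusted p = 0.912). Reads of the deleted exons were not examined here. The study measured Sirt6 in MuSCs of these genotypes by RT-qPCR. Xist stood at 16772 and 12950 in control and at 7 to 34 in the other 4 libraries, while the Y-linked Ddx3y stood at 3 and 8 in control and at 1024 to 1767 in the others. The control libraries thus go against the male sex that the study describes. Every difference from control therefore cannot be told apart from a difference in sex-linked RNA, whereas mdx and Sirt6mKO/mdx libraries lie on the same side for both genes. Within that side Xist was 7 and 8 in mdx and 33 and 34 in Sirt6mKO/mdx (log2 fold change 2.02, limma adjusted p = 0.000533).

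Chaperonins are barrel-shaped protein machines that enclose an unfolded protein and let it fold away from other proteins. In the mitochondrial matrix, HSP60 (Hspd1) forms the barrel and HSP10 (Hspe1) its lid, while mortalin (Hspa9) pulls precursors through the inner membrane and hands some of them on. Both mitochondrial chaperonin genes are classical targets of heat shock factors. In the cytosol, CCT is a double ring in which each subunit is the product of a gene of its own. Its best known substrates are actin and tubulin, which the prefoldin complex delivers to it. In muscle, where actin filaments and mitochondria are abundant, both systems serve proteins of the contractile and respiratory machinery.

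Because Hspd1 and Hspe1 responded together, the sequence between them is given first. They lie head to head on GRCm38 chromosome 1, Hspd1 (ENSMUSG00000025980, 55077835 to 55088243) on the minus strand and Hspe1 (ENSMUSG00000073676, 55088132 to 55091307) on the plus strand. Their annotated exons overlap by 112 bases. Promoter windows of 250 bases before to 50 after each RefSeq start (GRCm38.p6) were searched on both strands for alternating GAA and TTC units spaced by 2 bases, the letters of the heat shock element, and 9 genes were matched (all but Cct4 and Hspa9, with Cct6a added). Hspd1 and Hspe1 share a run of 4 such units at chr1:55088059-55088076, whose outer end on each strand lies 89 bases before the Hspe1 start and 144 bases before the Hspd1 start. The 30 bases around it, on the plus strand, lie inside an annotated exon of a transcript variant upstream of the RefSeq starts, and the same stretch is compared below with the 30 bases around a run of only 2 units near Cct2 (minus strand) and Cct5 (minus strand). Capitals mark the GAA and TTC units.
Hspd1 and Hspe1, chr1:55088053-55088082: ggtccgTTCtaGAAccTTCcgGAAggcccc
Cct2, chr10:117063399-117063428: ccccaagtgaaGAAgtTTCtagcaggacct
Cct5, chr15:31601862-31601891: acagcggccgaTTCcaGAAgctactctgcg

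The run of 4 units (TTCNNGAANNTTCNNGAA or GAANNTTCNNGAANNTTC) occurred in 8 of 32851 promoter windows (0.0244%), counted with the Hspd1 and Hspe1 windows, which overlap. A run of 3 (GAANNTTCNNGAA or TTCNNGAANNTTC) occurred in 0.603% of windows and, among these genes, at Hspd1 and Hspe1. A run of 2 (GAANNTTC or TTCNNGAA), which every longer run contains, occurred in 15.1% of windows and was found for Cct2, Cct5 and Cct6a besides Hspd1 and Hspe1. A match is a description of letters and not of binding.

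Of the 10 genes, 3 were called lower and 0 higher in mdx than in control, 2 were called higher and 0 lower in Sirt6mKO/mdx than in mdx, and 2 were called lower and 0 higher in Sirt6mKO/mdx than in control. A call needed a limma adjusted p of at most 0.05 over 15915 genes and an absolute log2 fold change of at least 1. The background is the share of all tested genes that were called. It was 7.34% lower and 6.89% higher for mdx against control, 5.62% higher and 2.54% lower for Sirt6mKO/mdx against mdx, and 2.68% lower and 5.19% higher for Sirt6mKO/mdx against control. The number of the 10 genes with an unadjusted p under 0.05 was 6, 3 and 4 in these comparisons, beside 31%, 25.2% and 24.1% of all tested genes. Their median log2 fold changes were -0.18, -0.29 and -0.52, beside 0.00, 0.02 and 0.01 over all tested genes. The last comparison shares its libraries with the other two and is no separate evidence.

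**Figure D1:**
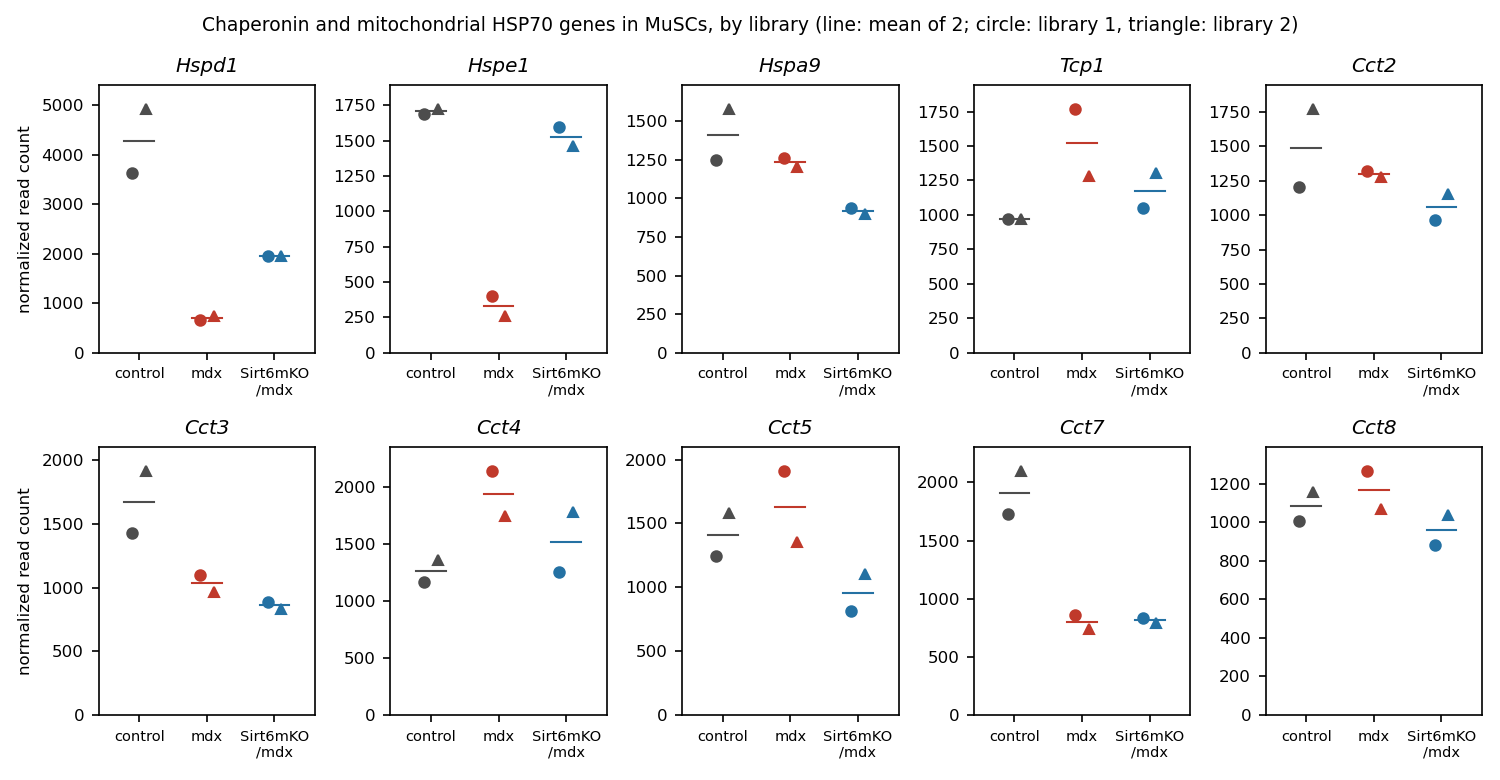
Normalized read count (y axis, from 0) of each of the 10 genes in the control, mdx and Sirt6mKO/mdx groups (x axis). Points are libraries and lines the mean of 2 libraries. Hspd1 and Hspe1 are lowest in mdx (670 and 737, 401 and 262), whereas Cct7 is as low in Sirt6mKO/mdx (836 and 793) as in mdx (862 and 736).

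The mitochondrial chaperonin fell in mdx MuSCs and stood higher again in the libraries labelled Sirt6mKO/mdx. Hspd1 had normalized read counts of 3630 and 4924 in control libraries, 670 and 737 in mdx libraries, and 1961 and 1962 in Sirt6mKO/mdx. Hspe1 had 1690 and 1726 in control libraries, 401 and 262 in mdx libraries, and 1600 and 1460 in Sirt6mKO/mdx. The 3 groups did not overlap for either gene, with control highest, Sirt6mKO/mdx between and mdx lowest. In mdx against control, Hspd1 decreased by 2.59 on the log2 scale (SE 0.26, 95% interval -3.15 to -2.03, limma adjusted p = 1.24e-05). Hspe1 decreased by 2.39 (SE 0.26, interval -2.95 to -1.84, adjusted p = 2.13e-05). The mean of mdx was thus 0.164 of the control mean for Hspd1 and 0.194 for Hspe1.

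Both genes were higher where the label is Sirt6mKO/mdx than in mdx, and Hspe1 rose by 2.23 on the log2 scale (SE 0.26, interval 1.68 to 2.79, adjusted p = 8.51e-05). Hspd1 rose by 1.48 (SE 0.26, interval 0.92 to 2.04, adjusted p = 0.00305). Ratios of the group means were 4.62 for the lid and 2.79 for the barrel. Against control, Hspd1 remained lower in Sirt6mKO/mdx at -1.11 on the log2 scale (adjusted p = 0.0174, SE 0.26), whereas Hspe1 gave -0.16 (SE 0.26, interval -0.71 to 0.39, adjusted p = 0.76). The calls of Hspd1 were less stable than those of Hspe1. Its rise lost the call without Sirt6mKO/mdx library 1 (adjusted p = 0.0858), without Sirt6mKO/mdx library 2 (0.0701) and when libraries were scaled to an equal total or fitted with voom weights (log2 fold change 0.85 in both, with the median of all genes at -0.58 and -0.60). With a single prior variance for all genes neither rise was called (adjusted p = 0.0697 for Hspe1 and 0.113 for Hspd1), nor was either called when no minimum mean was set (0.0816 and 0.0997). In this comparison a single prior variance called 0 of 15915 genes, and no minimum mean called 19 of 22706. The lower Hspd1 value against control was not called without control library 2 (0.109), Sirt6mKO/mdx library 1 (0.143) or Sirt6mKO/mdx library 2 (0.179), with no minimum mean (0.096) or with a single prior variance (0.149).

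**Figure D2:**
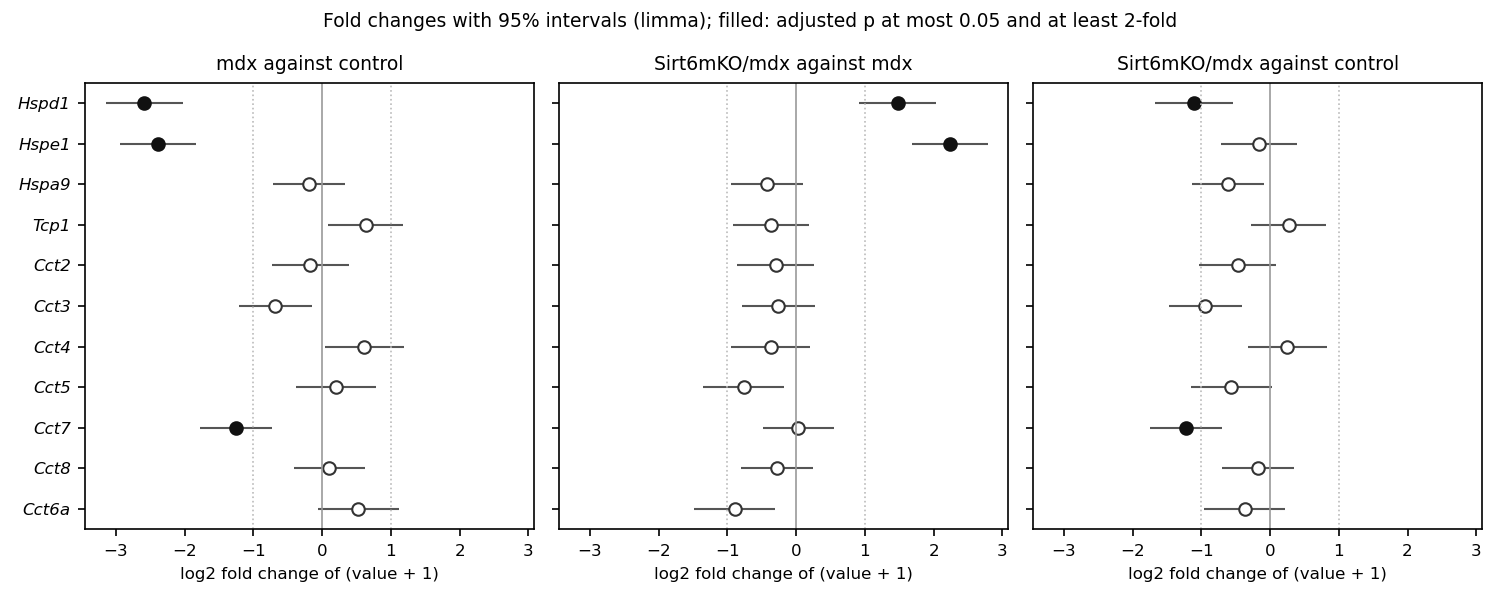
Log2 fold change of value + 1 (x axis) with its 95% interval for the 10 genes and Cct6a (y axis) in the 3 comparisons. Filled points were called, dotted lines mark a 2-fold change. Hspd1 and Hspe1 move by -2.59 and -2.39 and then by 1.48 and 2.23, while the CCT subunits, Cct6a included, lie between -1.25 and 0.63 in the first and between -0.90 and 0.03 in the second comparison.

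Mortalin did not follow the chaperonin of the same compartment. Hspa9 (ENSMUSG00000024359, chromosome 18) had 1248 and 1580 in control libraries, 1265 and 1202 in mdx libraries, and 941 and 901 in Sirt6mKO/mdx. The control and mdx libraries overlapped, and both Sirt6mKO/mdx libraries lay below the other 4. The log2 fold change was -0.19 in mdx against control (interval -0.71 to 0.34, adjusted p = 0.646), -0.42 in Sirt6mKO/mdx against mdx (interval -0.94 to 0.10, adjusted p = 0.305) and -0.61 in Sirt6mKO/mdx against control (interval -1.13 to -0.09, adjusted p = 0.143), so that no difference passed the test. Scaled to an equal total, the differences of Sirt6mKO/mdx from mdx and from control became -1.05 (adjusted p = 0.0179) and -1.21 (adjusted p = 0.00905), and both were called.

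A ratio of 2 genes in the same library does not depend on how libraries are scaled. The ratio of Hspd1 to Hspa9 was 2.91 and 3.12 in control libraries, 0.530 and 0.613 in mdx libraries, and 2.08 and 2.18 in Sirt6mKO/mdx. The ratio of Hspe1 to Hspa9 was 1.35 and 1.09 in control libraries, 0.317 and 0.218 in mdx libraries, and 1.70 and 1.62 in Sirt6mKO/mdx. For both ratios the mdx libraries lay below all others, and for Hspe1 the Sirt6mKO/mdx libraries lay above control. The ratio of Hspd1 to Hspe1 was 2.15 and 2.85 in control libraries, 1.67 and 2.81 in mdx libraries, and 1.23 and 1.34 in Sirt6mKO/mdx, so that reads of the barrel gene per read of the lid gene were fewest in the last group. With 2 libraries against 2, an exact permutation test of a ratio cannot go below p = 0.333, and the ratios are therefore given as values.

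**Figure D3:**
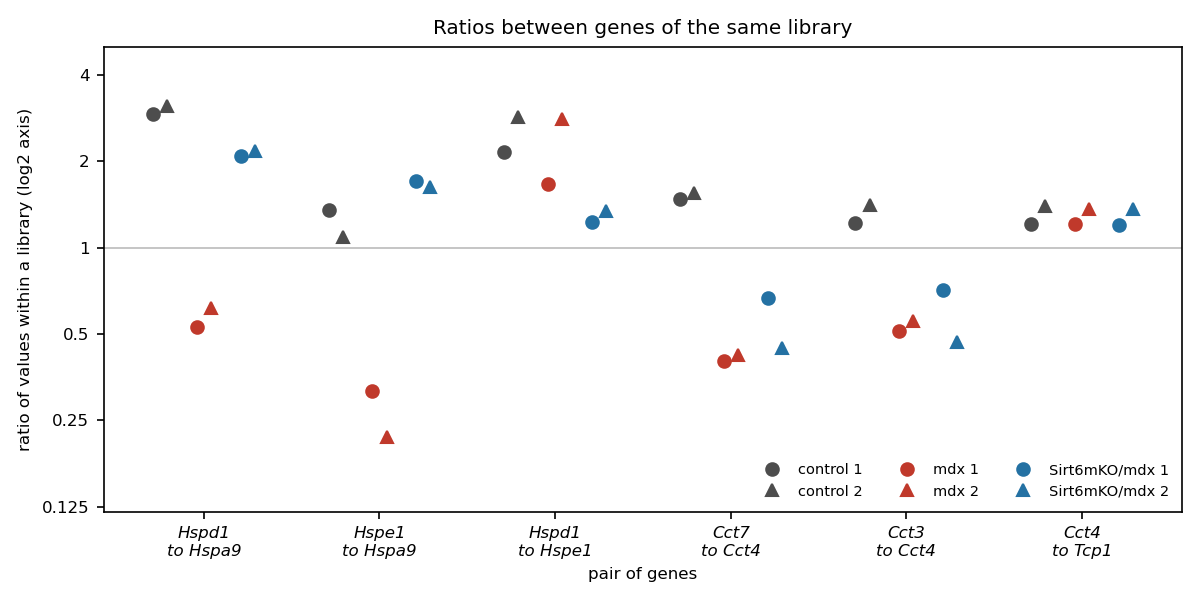
Ratio of the values of 2 genes in the same library (y axis, log2 scale) for 6 pairs of genes (x axis), with colours for groups and symbols for libraries. Hspd1 to Hspa9 falls from 2.91 and 3.12 in control to 0.530 and 0.613 in mdx, while Cct4 to Tcp1 lies between 1.19 and 1.4 in all 6 libraries.

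Levels of different genes were compared per kilobase of annotated exon. In control libraries, Hspd1 stood at 1374 and 1864 normalized reads per kilobase and Hspe1 at 1147 and 1171, above all CCT subunits, which ranged from 193 to 693. In mdx, Hspd1 stood at 254 and 279 and Hspe1 at 272 and 178, inside the range of 109 to 690 of the CCT subunits. In Sirt6mKO/mdx, Hspd1 at 742 and 743 and Hspe1 at 1085 and 991 were again above the CCT range of 117 to 451. The mitochondrial chaperonin genes thus led the cytosolic ones in control and Sirt6mKO/mdx libraries and not in mdx libraries. The length of all annotated exons was used, which overstates the length of the transcripts in use, so the order between genes is approximate.

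Processed copies could divert reads from the parent genes, because the authors left out reads that fell on several places. Copies with a mean of at least 1 were few and low. Hspe1-ps3 had 12 and 5 in control libraries, 7 and 10 in mdx libraries, and 9 and 6 in Sirt6mKO/mdx. Hspe1-ps5 had 6 and 9, 2 and 12, and 2 and 0 in the same order, and Hspe1-ps2 had 3 and 6, 1 and 5, and 0 and 2. No copy passed 12 in a library, beside 262 to 1726 for Hspe1 itself. Reads that fit a copy and its parent equally were counted for neither gene. These low values therefore cannot show how many parent reads were lost. Only copies named by the parent symbol followed by -ps or -rs were sought. The 112 shared bases of Hspd1 and Hspe1 are 4.24% of the exons of Hspd1 and 7.60% of those of Hspe1. The authors left out reads that overlapped several genes, and the use of strand in counting is not given in the sources used here. Reads in the shared bases were thus either left out of both genes or assigned by strand.

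The CCT subunits did not move together. Summed over the 7 genes, their normalized read counts were 8751 and 10846 in control libraries, 10361 and 8421 in mdx libraries, and 6686 and 8010 in Sirt6mKO/mdx. The sums of control and mdx overlapped while their composition differed. Cct7, the eta subunit (ENSMUSG00000030007, chromosome 6, 85451505 to 85468477, plus strand), was the CCT gene that passed the test. It had 1725 and 2097 in control libraries, 862 and 736 in mdx libraries, and 836 and 793 in Sirt6mKO/mdx. Control lay above all other libraries, and the mdx and Sirt6mKO/mdx libraries overlapped. Cct7 decreased by 1.25 on the log2 scale in mdx against control (SE 0.24, interval -1.78 to -0.73, adjusted p = 0.00287) and by 1.22 in Sirt6mKO/mdx against control (SE 0.24, interval -1.74 to -0.70, adjusted p = 0.00631). Between Sirt6mKO/mdx and mdx it differed by 0.03 (interval -0.49 to 0.55, adjusted p = 0.954), a direction that turned with the scaling (-0.60 at equal totals). The fall in mdx was not called with a single prior variance for all genes (adjusted p = 0.0733), and the fall in Sirt6mKO/mdx was not called without control library 2 (0.0536) or without Sirt6mKO/mdx library 1 (0.0776) or 2 (0.126), nor with no minimum mean (0.085) or a single prior variance (0.124).

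The 250 bases before the Cct7 start are shown because Cct7 fell in mdx as Hspd1 and Hspe1 did, and no GAA and TTC pair of the kind above was found in them. They hold 3 copies of ATTGG, the complement of CCAAT, and 2 GC boxes (GGGCGG or CCGCCC), which are in capitals. CCAAT or ATTGG occurred in 37.4% and a GC box in 35.7% of all promoter windows, and all 9 matched genes had a GC box. A missing GAA and TTC pair is likewise a description of letters only. Of 16 cytosolic HSP70 and HSP90 chaperone genes with a window (list below), 8 had a run of 2 units and 3 a run of 3.
Cct7, chr6:85451255-85451504, plus strand: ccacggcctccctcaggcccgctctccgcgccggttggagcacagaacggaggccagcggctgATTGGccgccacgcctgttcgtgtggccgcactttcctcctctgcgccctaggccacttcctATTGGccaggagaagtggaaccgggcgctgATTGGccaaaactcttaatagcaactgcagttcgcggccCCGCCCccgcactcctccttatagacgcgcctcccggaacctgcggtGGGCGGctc

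Cct3, the gamma subunit, stood beside Cct7 in its pattern. It had 1429 and 1913 in control libraries, 1098 and 967 in mdx libraries, and 890 and 832 in Sirt6mKO/mdx, with no overlap between groups. Its log2 fold change was -0.68 in mdx against control (SE 0.25, adjusted p = 0.0767) and -0.94 in Sirt6mKO/mdx against control (SE 0.25, interval -1.48 to -0.41, adjusted p = 0.03). The latter passed the p threshold and stayed short of the minimum fold, so neither was a call. The second value became -1.15 without control library 1 (adjusted p = 0.0261) and -1.55 at equal totals (adjusted p = 0.00213), and was called in both.

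Tcp1 (alpha subunit, CCT1) and Cct4 (delta) went the other way. Tcp1 had 970 and 971 in control libraries, 1769 and 1279 in mdx libraries, and 1049 and 1305 in Sirt6mKO/mdx. Cct4 had 1169 and 1356 in control libraries, 2138 and 1741 in mdx libraries, and 1252 and 1783 in Sirt6mKO/mdx. Mdx lay above control for both, and Sirt6mKO/mdx overlapped with mdx. In mdx against control the log2 fold changes were 0.63 for Tcp1 (interval 0.08 to 1.18, adjusted p = 0.11) and 0.62 for Cct4 (interval 0.04 to 1.19, adjusted p = 0.134), which did not pass the test. Exons of Tcp1 overlap those of Acat3 on the other strand over 11.4% of their length, and Acat3 had at most 33 normalized reads in any library. Reads in these shared bases, too, were either left out of both genes or assigned by strand.

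Cct2 (beta), Cct5 (epsilon) and Cct8 (theta) overlapped between control and mdx. Cct2 had 1207 and 1773 in control libraries, 1320 and 1275 in mdx libraries, and 964 and 1154 in Sirt6mKO/mdx. Cct5 had 1243 and 1578, 1909 and 1354, and 811 and 1104 in the same order. Cct8 had 1008 and 1158, 1265 and 1069, and 884 and 1039. For each of these genes both Sirt6mKO/mdx libraries lay below both mdx libraries, a separation that was not counted over all genes. The largest of these differences was that of Cct5, with a log2 fold change of -0.76 in Sirt6mKO/mdx against mdx (SE 0.28, interval -1.35 to -0.18, adjusted p = 0.0966), which did not pass the test but did so at equal totals (-1.39, adjusted p = 0.00585). The other two had -0.30 (Cct2, adjusted p = 0.52) and -0.28 (Cct8, adjusted p = 0.519). Cct2 and Cct5 carry the 2-unit match printed above, and neither was called in any of the 3 comparisons as fitted here. At equal totals both were called lower in Sirt6mKO/mdx against control (-1.08, adjusted p = 0.0229, for Cct2 and -1.17, adjusted p = 0.0149, for Cct5).

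The zeta position of CCT is filled by the product of Cct6a, or of Cct6b in testis, and both are outside the 10 genes. Cct6a had 651 and 1037 in control libraries, 1311 and 1070 in mdx libraries, and 554 and 730 in Sirt6mKO/mdx. It was highest in the mdx libraries, with a log2 fold change of 0.53 against control (adjusted p = 0.215) and -0.90 in Sirt6mKO/mdx against mdx (SE 0.28, interval -1.49 to -0.31, adjusted p = 0.0559). Cct6b had at most 9 normalized reads in a library.

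The make-up of CCT transcripts within a library, which no scaling changes, differed between control and the other groups. Cct7 gave 19.5% ± 0.267 (SD, n = 2) of the summed values of the 7 genes in control, 8.53% ± 0.297 in mdx and 11.2% ± 1.84 in Sirt6mKO/mdx. Cct3 gave 17.0% ± 0.925, 11.0% ± 0.626 and 11.9% ± 2.07. Cct4 gave 12.9% ± 0.605, 20.7% ± 0.0279 and 20.5% ± 2.50, and Tcp1 gave 10.02% ± 1.51, 16.1% ± 1.33 and 16.0% ± 0.426. In these 4 genes control did not overlap with mdx or Sirt6mKO/mdx, and the same held for Cct8 (11.1% ± 0.595, 12.5% ± 0.343 and 13.1% ± 0.177). Control also overlapped with neither group for Cct5, but lay between them (14.4% ± 0.244, 17.3% ± 1.66 and 13.0% ± 1.17), and Cct2 overlapped in all groups (15.1% ± 1.81, 13.9% ± 1.70 and 14.4% ± 0.00792). Although Cct8 was separated in its share, its read counts overlapped between control and mdx. Shares add up to the whole, so a lower share of some genes raises the others. With 2 libraries against 2, a lack of overlap has an exact permutation p of 0.333. It was not counted over all genes. The ratio of Cct7 to Cct4 was 1.48 and 1.55 in control libraries, 0.403 and 0.423 in mdx libraries, and 0.668 and 0.445 in Sirt6mKO/mdx. In contrast, the ratio of Cct4 to Tcp1 was 1.21 and 1.4, 1.21 and 1.36, and 1.19 and 1.37, with all groups overlapping. Not divided by length, Cct7 was the highest of the 7 values in both control libraries and the lowest in both mdx libraries. Per kilobase, Cct2 was the highest in both control libraries (472 and 693), with Cct7 at 255 and 309, and Cct7 was the lowest in both mdx libraries (127 and 109).

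**Figure D4:**
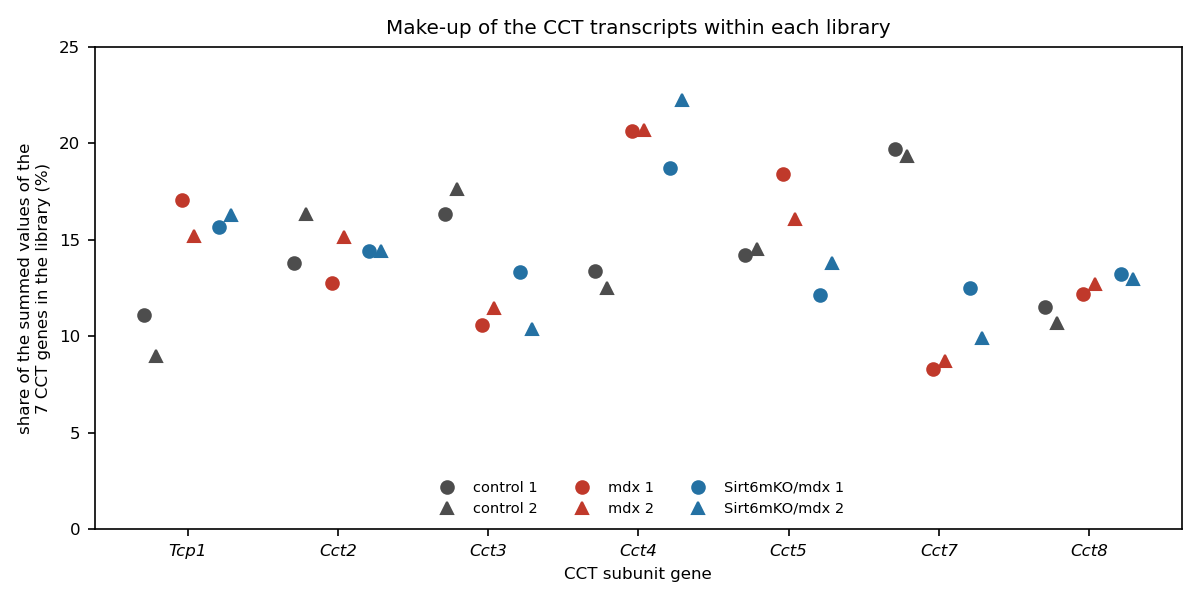
Share of each CCT subunit gene (x axis) in the summed normalized read counts of the 7 genes of a library (y axis, percent). Colours are groups and symbols libraries. Cct7 takes 19.7% and 19.3% in control but 8.32% and 8.74% in mdx, while Cct4 takes 13.4% and 12.5% in control and 20.6% and 20.7% in mdx.

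Partners of the chaperonins were described by lists. Prefoldin, which delivers actin and tubulin to CCT, had 5 tested subunits. Of these, 2 rose in mdx against control, Vbp1 (log2 fold change 1.57, SE 0.27, adjusted p = 0.00118) and Pfdn5 (1.12, SE 0.30, adjusted p = 0.0193). Vbp1 had 106 and 92 in control libraries, 336 and 261 in mdx libraries, and 385 and 458 in Sirt6mKO/mdx. It lies on chromosome X, and the control libraries differ from the others in Xist and Ddx3y. Against control, 3 were called higher in Sirt6mKO/mdx, Vbp1 (2.08), Pfdn4 (1.27) and Pfdn5 (1.26). Limma called 0 of the 5 in Sirt6mKO/mdx against mdx, and 0 had an unadjusted p under 0.05. The median of the list was 1.08 in mdx against control, 0.19 in Sirt6mKO/mdx against mdx and 1.26 in Sirt6mKO/mdx against control.

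The CCT cofactors Pdcl, Pdcl3 and Txndc9, proteins of the phosducin-like family, had positive log2 fold changes in mdx against control with a median of 0.81. Limma called 0 of the 3, and 2 had an unadjusted p under 0.05, as 31% of all tested genes had. Among 12 actin and tubulin genes, whose products CCT folds, 3 fell in mdx, Tuba4a (-2.20, adjusted p = 0.0105), Actg1 (-1.51, adjusted p = 0.002) and Tubb6 (-1.29, adjusted p = 0.00404). In this comparison 4 of the 12 had positive values and were not called, Tubb5 (0.74), Tubb2b (0.65), Tuba1a (0.54) and Actb (0.35). Summed values of the 12 were 10248 and 13154 in control libraries, 14426 and 11817 in mdx libraries, and 8201 and 9825 in Sirt6mKO/mdx. Actb was the most abundant of them. Tuba1b (-1.31, adjusted p = 0.0198) and Tuba1a (-1.11, adjusted p = 0.0365) fell in Sirt6mKO/mdx against mdx. Actg1 had 711 and 528 in control libraries, 254 and 180 in mdx libraries, and 308 and 233 in Sirt6mKO/mdx, so that, as for Cct7, control stood above the other groups. Of the 5 tubulin folding cofactors, which act after CCT, Tbcb (1.09, adjusted p = 0.0482) and Tbca (1.06, adjusted p = 0.0428) rose in mdx.

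In the mitochondrion, the list of mortalin partners and the import motor held 12 tested genes with a median log2 fold change of 0.21 in mdx against control. Dnajc19, a J-protein of the import motor, was called lower in mdx (-1.21, SE 0.29, adjusted p = 0.0116) and in Sirt6mKO/mdx against control (-1.09, adjusted p = 0.0312). It had 246 and 311 in control libraries, 105 and 135 in mdx libraries, and 130 and 128 in Sirt6mKO/mdx. Limma called 0 of the 12 in Sirt6mKO/mdx against mdx, where 1 had an unadjusted p under 0.05. Of 6 mitochondrial protease genes, including Lonp1 and Clpp, limma called 0 in the 3 comparisons, with 1, 0 and 1 at an unadjusted p under 0.05. The fall of Hspd1 and Hspe1 in mdx was thus not matched by a call in the proteases or in most of the import list.

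Of 20 tested cytosolic HSP70 and HSP90 chaperones and cochaperones, 13 were called lower in mdx against control, as Hspd1 and Hspe1 were, with a list median log2 fold change of -1.86. The other 7 were not called, and Hspa14 (0.86) and Dnaja2 (0.53) had positive values. Dnajb1 (-4.69, adjusted p = 2.38e-06) and Bag3 (-3.69) were the lowest, followed by Hsph1 (-3.39), Hspa1b (-2.58) and Hspa1a (-2.52). Hspa1a and Hspa1b are near-identical copies and their division of reads is uncertain. Of the 20, 9 were called higher in Sirt6mKO/mdx against mdx, among them Dnajb1 (3.70), Bag3 (2.90), Hsph1 (2.73), Hsp90aa1 (2.05) and Dnaja1 (2.01), with a list median of 0.84. The other 11 were not called, and Hspa14 (-0.59), Hspa4 (-0.49), Dnaja2 (-0.28) and St13 (-0.22) had negative values. Against control, 3 were called lower in Sirt6mKO/mdx, Ahsa1 (-1.09), Hspa4l (-1.08) and Stip1 (-1.04), beside -1.11 for Hspd1. Heat shock factor 1 (Hsf1) had 284 and 278 in control libraries, 112 and 141 in mdx libraries, and 203 and 136 in Sirt6mKO/mdx, and was called lower in mdx (-1.15, SE 0.30, adjusted p = 0.0159). Hsf2 had 103 and 142, 234 and 163, and 121 and 209 in the same order, and was not called.

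**Figure D5:**
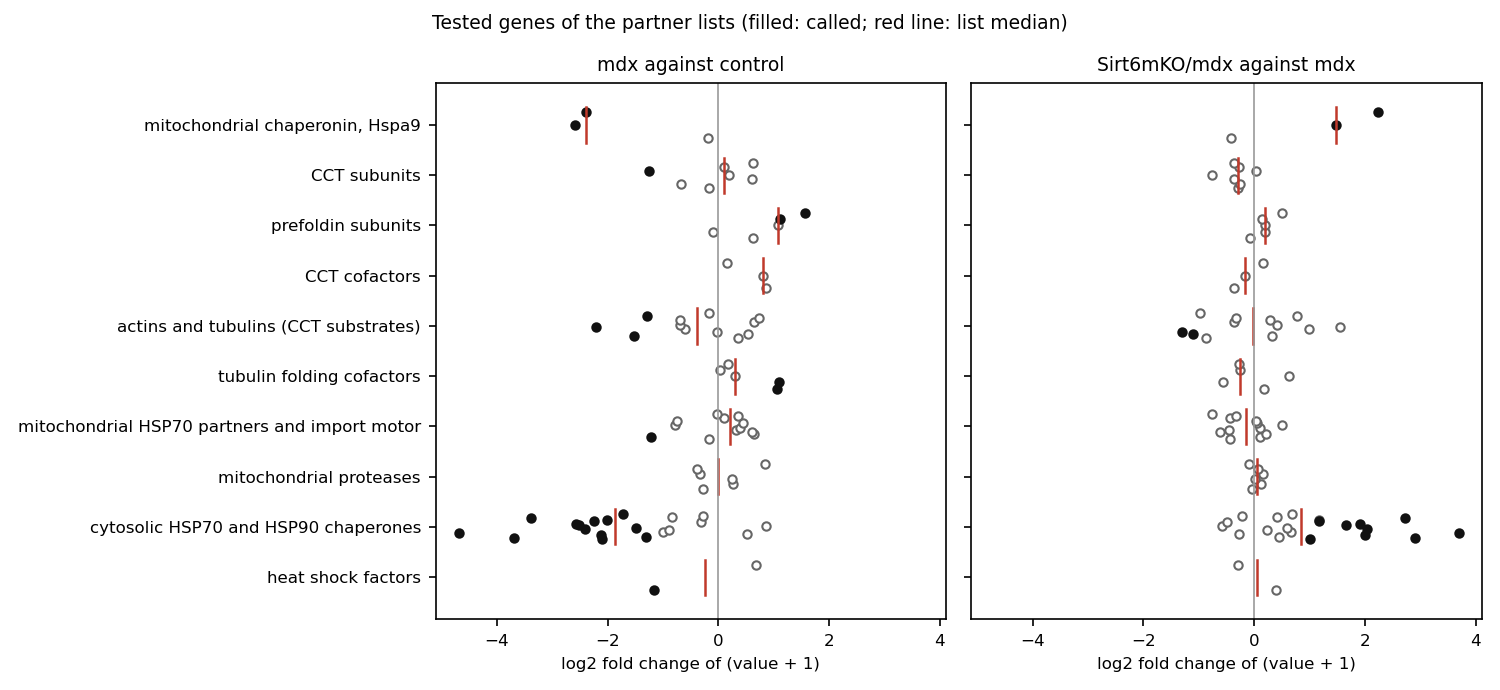
Log2 fold change of value + 1 (x axis) of the tested genes in each list (y axis) for mdx against control (left) and Sirt6mKO/mdx against mdx (right). Filled points were called and red lines are list medians. The cytosolic HSP70 and HSP90 list has a median of -1.86 on the left and 0.84 on the right, while the 7 CCT subunits have 0.11 and -0.30.

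Genes with the profile most like that of Hspd1 over the 6 libraries were sought among 9656 genes with a mean of at least 50, by the Euclidean distance of centred log2(value + 1) profiles. They were Camta1 (distance 0.354), Bhlhe40 (0.382), Dnaja4 (0.388), Hspa1a (0.439) and Hspa4l (0.443), and 3 of these 5 are HSP40 or HSP70 family chaperone genes. Dnaja4 had 955 and 1567 in control libraries, 195 and 250 in mdx libraries, and 704 and 689 in Sirt6mKO/mdx. Closest to the mean profile of the 10 genes were Ahctf1 (0.139), Ctps (0.169), Mon1b (0.173), Tor1aip2 (0.179) and Rnf25 (0.186). Ahctf1 had 1127 and 1330, 858 and 808, and 865 and 894, a shallower pattern in which mdx and Sirt6mKO/mdx were alike, unlike that of Hspd1.

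The summed values of other gene groups were also lowest in mdx. Of 18 immediate early and dissociation response genes, 17 were called lower in mdx against control and 17 higher in Sirt6mKO/mdx against mdx. Their summed values were 81314 and 87884 in control libraries, 11391 and 13156 in mdx libraries, and 72180 and 75833 in Sirt6mKO/mdx. Myofibre markers summed to 19721 and 40400, 15010 and 12326, and 33933 and 24695, with 4 of 8 called lower in mdx and 3 called higher in Sirt6mKO/mdx against mdx. Most of each sum is Ttn, which was not called, and Mylpf had its lowest mean in control (911 and 658, beside 1491 and 341 in mdx). Endothelial markers summed to 905 and 752, 407 and 403, and 610 and 631, with 2 of 4 tested called lower in mdx and 0 called by limma in Sirt6mKO/mdx against mdx (3 at an unadjusted p under 0.05, all higher), and Cldn5 was at 0 in both control libraries. Most of each endothelial sum is Tek (669 and 631, 379 and 348, and 503 and 469), which stayed short of the minimum fold in mdx (-0.84, adjusted p = 0.0247) and was not called, while Pecam1 and Kdr were the genes called. All of these sums were lowest in mdx, as Hspd1 and Hspe1 were, and their part in the result was not tested.

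Fibro-adipogenic markers summed to 18380 and 25475 in control libraries, 40236 and 36052 in mdx libraries, and 21136 and 30303 in Sirt6mKO/mdx, with 3 of 7 called higher in mdx and 1 called lower in Sirt6mKO/mdx against mdx. Most of each sum is Col3a1, which was not called. Col1a2 (196 and 416, 4730 and 6265, and 1885 and 3535), Ly6a and Col1a1 were the genes called in mdx, with Col1a2 at 4.25 on the log2 scale (adjusted p = 2.38e-06). The libraries of a group differed in both directions. Pdgfra (195 and 18 in mdx, 142 and 19 in Sirt6mKO/mdx), Lum (315 and 64, 316 and 102), Ly6a (79 and 21, 65 and 15) and Dcn (2087 and 858, 2013 and 1352) were higher in library 1 of both groups, and Col1a2 was higher in library 2 of both. Smooth muscle and pericyte markers summed to 1050 and 1904, 3123 and 2534, and 1394 and 1846, with 1 of 5 called higher in mdx. Their order is that of Acta2 (2837 and 2334 in mdx), the gene called, while Rgs5 (93 and 44) and Cspg4 (81 and 84) had their lowest means in mdx. Proliferation genes summed to 1586 and 1529, 2300 and 3380, and 1245 and 1944, with 7 of 14 called higher in mdx and 5 called lower in Sirt6mKO/mdx against mdx. In mdx against control 13 of the 14 had positive values. The other, Pcna, was the largest in control (764 and 490, 378 and 290, and 348 and 478) and stayed short of the minimum fold (-0.88, limma adjusted p = 0.0448). Ccnb1 had its highest mean in Sirt6mKO/mdx. The fibro-adipogenic, smooth muscle and proliferation sums were highest in mdx, where Tcp1, Cct4, Cct5, Cct8 and Cct6a had their highest means too. Leukocyte markers (80 to 182 per library, Ptprc at 0 in control), erythroid markers (7 to 91) and Schwann markers (14 to 50) were low. Among them Cd68 had 86 and 88, 30 and 26, and 107 and 56 and was called lower in mdx (adjusted p = 0.0217), Lyz2 had 0 and 14, 47 and 26, and 39 and 67 and was called higher in mdx (adjusted p = 0.035), and Hbb-bs had 8 and 5, 2 and 2, and 17 and 54 and was called higher in Sirt6mKO/mdx against mdx (adjusted p = 0.0313). MuSC markers, among them Pax7 and Myf5, summed to 32106 and 29725, 30933 and 23934, and 23602 and 27503, and 10 of 11 were not called in each comparison. The exception was Sdc4, a syndecan of the cell surface, with 7692 and 6224 in control libraries, 1100 and 1049 in mdx libraries, and 2753 and 2822 in Sirt6mKO/mdx libraries. It was called in all 3 comparisons (-2.69, 1.37 and -1.31), with the order of groups seen for Hspd1. The part of these groups in the results was not tested, and in sorted bulk RNA a change in the number of cells of a type and a change in RNA per cell cannot be told apart.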

How the data were processed

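Total RNA of sorted MuSCs was depleted of ribosomal RNA and sequenced on an Ion Torrent platform. Per the labels and methods, the authors assessed reads with FastQC 0.10.1, trimmed them with Reaper, aligned them with STAR (2.4.2a in the processing notes, another 2.4 release in the methods) to GRCm38, counted unique reads per Ensembl gene with featureCounts 1.4.5-p1 and normalized with DESeq2. The deposited values are whole numbers, taken here as a score: read counts divided by 1 size factor per library and rounded by the authors, not raw counts. Size factors (0.537 to 1.53) were recovered from skipped and doubled whole numbers. Of 18 simulated factors, 16 were recovered within 1%, 1.52 came out as 1.48, and 1.0 as 2.97. The factor of mdx library 1 (1.53) could likewise be 1.47, and the next best factor of control library 1 (0.662) was 2.66. Depth is therefore approximate, and the 10 most abundant genes took 11.8% to 32.6% of a library.

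Log2(value + 1) was fitted with limma 3.58.1 (R 4.3.3) over all 6 libraries, with a prior variance that follows the mean and no block. Fold changes on this scale understate those of low genes. Genes with a mean of at least 5 were tested, and a call needed a Benjamini-Hochberg adjusted p of at most 0.05 (two-sided) and an absolute log2 fold change of at least 1. The scripts were tested on simulated data. Alternatives were other pseudocounts, minimum means, scalings, prior variances, voom weights, a replicate block, only the groups compared and leaving out each library. GENCODE M21 held 98.5% of gene identifiers. Promoters came from RefSeq.

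The genes, lists and tests were chosen with earlier results of these data known. The named genes are the 10 chaperonin and Hspa9 genes, Cct6a, Cct6b, Hsf1, Hsf2, processed copies with a mean of at least 1, called genes of the partner lists (at most 5 per list, by absolute log2 fold change), the 5 genes nearest in profile to the mean of the 10 genes and to Hspd1 (mean of at least 50), and Sirt6, Xist and Ddx3y. Any gene named beyond these, such as markers and neighbours, was picked with its values in view.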

Additional observations from a re-analysis of the deposited data

How the results depend on the processing

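In mdx against control, 3 of the 10 genes were called under all alternatives except a single prior variance for all genes, which left 2, and 3 were called whichever library was left out. In Sirt6mKO/mdx against mdx, the count of 2 became 0 without a minimum mean (Hspe1 adjusted p = 0.0816, Hspd1 0.0997) and 0 with a single prior variance, and 1 to 2 when a library was left out, Hspe1 being the gene kept. In Sirt6mKO/mdx against control, the count of 2 became 0 without a minimum mean, 0 with a single prior variance, 6 at equal totals and 6 with voom weights (Hspd1, Hspa9, Cct2, Cct3, Cct5 and Cct7 in both, all lower), and 0 to 3 when a library was left out. It was 0 without control library 2, Sirt6mKO/mdx library 1 or Sirt6mKO/mdx library 2. In Sirt6mKO/mdx against mdx, equal totals and voom weights each gave 3 calls, of which 1 was higher (Hspe1) and 2 lower (Hspa9 and Cct5), in place of 2 higher and 0 lower. With equal totals the median of all genes was -0.58 in both comparisons with Sirt6mKO/mdx, against 0.02 and 0.01 as reported. Over all genes equal totals changed the calls in Sirt6mKO/mdx against mdx from 895 higher and 405 lower to 479 higher and 2939 lower, and against control from 826 and 427 to 455 and 2700. A single prior variance called 0 genes of the whole table in Sirt6mKO/mdx against mdx and 87 in Sirt6mKO/mdx against control. No minimum mean called 19 and 2 in the same order. In mdx against control these 2 settings called 541 and 406. The alternative of equal totals without the 10 most abundant genes was chosen after seeing the data and gave 3, 3 and 3 calls, those of the second comparison being 2 higher and 1 lower (Cct5).

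Values reversed for genes near 0. With a library left out, mdx against control ranged from -0.4504 to 0.104 for Cct2 (lowest without control library 1, highest without control library 2), -0.0487 to 0.4466 for Cct5 and -0.0153 to 0.2274 for Cct8 (both lowest without mdx library 1). Cct7 in Sirt6mKO/mdx against mdx ranged from -0.0822 (without mdx library 2) to 0.1455 and was also -0.0064 without Sirt6mKO/mdx library 1. Cct4 in Sirt6mKO/mdx against control ranged from -0.0081 (without Sirt6mKO/mdx library 2) to 0.5017. With equal totals, voom weights and equal totals without the most abundant genes, Cct7 in Sirt6mKO/mdx against mdx was -0.5962, -0.5969 and -0.3682, and in Sirt6mKO/mdx against control Tcp1 was -0.3359, -0.3363 and -0.0371 and Cct4 -0.3588, -0.3597 and -0.0599. Of the single-gene values under all alternatives, 521 kept direction and side of the threshold, 19 fell short of it, 15 newly passed it and 15 reversed. The cause was not tested.

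Library numbers were not shown to pair libraries, with correlations of deviations of -0.128 (control and mdx), 0.119 (control and Sirt6mKO/mdx) and 0.009 (mdx and Sirt6mKO/mdx). A fit with the replicate number as a block called 3, 2 and 2 of the 10 genes, as without it.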

Other observations

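Genes that start close to a gene of the chaperonin set on the other strand were listed, since Hspd1 and Hspe1 form such a pair. Of 11 genes checked (Cct6a included), 8 had a neighbour whose start lay within 1000 bases on the other strand. Mrpl18, a mitochondrial ribosomal protein gene whose start lies 644 bases from that of Tcp1, had 32 and 32 in control libraries, 90 and 97 in mdx libraries, and 59 and 45 in Sirt6mKO/mdx, and was called higher in mdx against control (log2 fold change 1.52, limma adjusted p = 0.0234). Pradc1, whose start lies 465 bases from that of Cct7, had 69 and 53 in control libraries, 36 and 24 in mdx libraries, and 20 and 17 in Sirt6mKO/mdx, each group below the one before, and was not called (-1.02 in mdx against control, adjusted p = 0.209). Fam173b, 5 bases from the start of Cct5, had 115 and 100, 77 and 58, and 99 and 80, and was not called either. Exons of Tcp1 and Mrpl18 and of Cct7 and Pradc1 overlap, and reads in the shared bases were either left out of both genes or assigned by strand.

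The letters of the heat shock element were also counted for all tested genes with a promoter window. Among 66 genes with a run of 3 or more units, Hspd1 and Hspe1 included, 10 (15.2%) were called lower in mdx against control, beside 7.33% of 9063 genes with no run and 7.91% of 1429 genes with a run of 2. In Sirt6mKO/mdx against mdx 5 of the 66 (7.58%) were called higher. Beside this stood 4.67% of those with no run, 5.25% of those with a run of 2 and 5.62% of all tested genes. The median log2 fold change of the 66 genes was -0.18 in the first and -0.02 in the second comparison. These shares are descriptions and were not tested.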
